A study of Mus musculus with 12 samples.

Results

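Integrin chains were followed in microglia of the mouse hippocampus, as the genes Itgam, Itgax, Itgal, Itga4, Itga5, Itga6, Itga2b, Itgae, Itgb1 and Itgb2, chosen by name. Of these 10 genes, 9 were found in the count table among 545 endogenous genes, and Itgae was not analysed here. The BDS group held 6 samples from male Balbc pups of postnatal day 28 that underwent brief daily separation (BDS), in which pups were apart from the mother for 15 min each day from postnatal day 1 to 21. The control group held 6 samples from male Balbc pups of the same age, and all 12 samples came from different litters. Microglia were isolated with a Percoll gradient and FACS; the labels do not name the antibodies, so whether an integrin protein served in the sort is not known. Transcripts were counted as fluorescent barcodes, 1 probe a gene, on a NanoString nCounter mouse immune panel after 5 rounds of PCR.

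Integrins are cell-surface receptors made of 1 alpha and 1 beta chain, and they bind matrix proteins, complement fragments and receptors on other cells. The alpha chains of Itgam, Itgax and Itgal pair with the beta chain of Itgb2 to form the leukocyte integrins, of which the Itgam dimer, complement receptor CR3, takes up complement-tagged synapses and debris in microglia. The alpha chains of Itga4, Itga5 and Itga6 pair mainly with the beta chain of Itgb1 and bind VCAM-1, fibronectin and laminin.

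Total barcode counts were 641756 to 1171355 in BDS samples and 893936 to 1409376 in control samples. Values below are normalized counts, that is, counts divided by a factor from 6 housekeeping genes of the same sample. BDS 21, BDS 25 and BDS 55 had the lowest of these factors in their group, 0.61, 0.65 and 0.85, and a count ratio of the housekeeping genes Rpl19 to Polr2a of 0.465 to 0.790, against 0.113 to 0.267 in the other 9 samples. Results are therefore also given without these 3 samples, and whether RNA amount or quality bears on them was not tested. Of the microglial markers Cx3cr1, Csf1r, Tmem119, P2ry12, Trem2, Tyrobp, Aif1, C1qa and C1qb, 6 of 9 were on the panel and all 6 passed the filter on low counts. Their summed normalized counts were 152947 to 225365 in BDS samples and 158641 to 174246 in control samples. Of the panel's markers of other cells, 4 of 10 for T cells, 3 of 6 for B cells, 3 of 5 for NK cells, 1 of 3 for blood monocytes and border macrophages, 1 of 4 for neutrophils and 0 of 2 for mast cells passed that filter. Pax5, Cd163 and Marco were among those below background in all 12 samples. Blnk, Cd79b, Klrd1, Prf1, Cd5 and Ccr2 exceeded background in all 12. The B cell markers Blnk and Cd79b averaged 3462 and 188 normalized counts in BDS and 3078 and 161 in control. Of 15 tested markers of other cells, endothelium and dendritic cells included, 3 were lower and 0 higher in BDS at an unadjusted p under 0.05. Of all tested genes, 11.5% were lower and 0.84% higher. The 3 markers were named after their values were seen. The T cell kinase Lck had a log2 fold change (BDS over control) of -0.53 (edgeR, adjusted p = 0.25), and -0.58 without BDS 21, BDS 25 and BDS 55. The monocyte chemokine receptor Ccr2 had -0.36 (adjusted p = 0.38), and -0.16 without those 3, and the third, Cdh5, is given with Itga6. The part of these cells in the values of the integrin chains was not tested.

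The promoters of 3 chains are shown because Itgam had the highest counts among them, Itgax is a second alpha chain of its chromosome 7 group, and Itgb1 had the smallest p-value. Each is 300 bases from RefSeq (GRCm38.p6, a C57BL/6J genome and not the Balbc strain studied), from 250 before to 50 after the gene's start and printed in the gene's direction. Capitals mark GAGGAA or its reverse complement TTCCTC, a core motif bound by the myeloid factor PU.1. The windows are chr7:128062390-128062689 (plus strand) for Itgam, chr7:128129300-128129599 (plus strand) for Itgax and chr8:128685404-128685703 (plus strand) for Itgb1.
Itgam: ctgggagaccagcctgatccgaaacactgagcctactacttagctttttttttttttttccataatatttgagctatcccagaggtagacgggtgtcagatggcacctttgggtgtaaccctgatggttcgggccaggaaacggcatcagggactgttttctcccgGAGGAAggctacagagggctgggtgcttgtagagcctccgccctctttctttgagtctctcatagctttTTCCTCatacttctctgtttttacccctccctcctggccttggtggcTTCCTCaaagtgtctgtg
Itgax: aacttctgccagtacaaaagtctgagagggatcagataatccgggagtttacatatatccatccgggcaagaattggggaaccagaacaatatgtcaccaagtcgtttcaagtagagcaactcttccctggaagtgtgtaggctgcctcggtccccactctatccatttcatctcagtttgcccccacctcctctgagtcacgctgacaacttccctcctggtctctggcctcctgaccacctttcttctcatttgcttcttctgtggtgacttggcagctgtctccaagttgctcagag
Itgb1: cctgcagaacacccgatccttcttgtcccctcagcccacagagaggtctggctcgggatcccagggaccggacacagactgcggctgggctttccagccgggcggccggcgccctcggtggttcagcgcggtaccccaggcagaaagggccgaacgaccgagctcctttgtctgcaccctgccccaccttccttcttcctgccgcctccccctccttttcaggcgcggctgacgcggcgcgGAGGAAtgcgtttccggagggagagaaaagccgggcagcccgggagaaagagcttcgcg
The Itgam window held 3 matches on either strand, the Itgb1 window 1 and the Itgax window 0, with no overlap between matches. Of 32851 promoter windows in the table, 28.3% held at least 1 match. Windows were found for 6 of the 9 genes, and those of 4 held a match.

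The study compared BDS with control microglia at this age. None of the integrin chains passed the adjusted threshold of 0.05 (edgeR quasi-likelihood test, smallest adjusted p = 0.25, for Itgb1), and neither did any of the 357 tested genes (0.0%). An unadjusted p under 0.05 was seen for 44 of these genes. DESeq2 with the same scaling called 6 genes and edgeR without BDS 7 called 4, none of them an integrin chain. In sorted bulk samples, fewer cells that carry a transcript and less of it per cell cannot be told apart. Of the 9 chains, 8 passed the filter on low counts and were tested. At an unadjusted p under 0.05 there was 1 of 8 chains, Itgb1, with lower counts in BDS, beside 11.5% of all tested genes with lower counts. Log2 fold changes, given as BDS over control, were below 0 for 6 of 8 chains and for 66.1% of all tested genes. Their median was -0.16 for the chains and -0.10 for all tested genes. With TMM scaling, which sets the level by the tested genes themselves, the medians were -0.07 and -0.01. Without BDS 21, BDS 25 and BDS 55 the median of the chains was -0.07, above the -0.09 of all tested genes. For none of the 8 chains did all 6 BDS samples lie below all 6 controls, which occurred for 1.12% of tested genes.

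**Figure D1:**
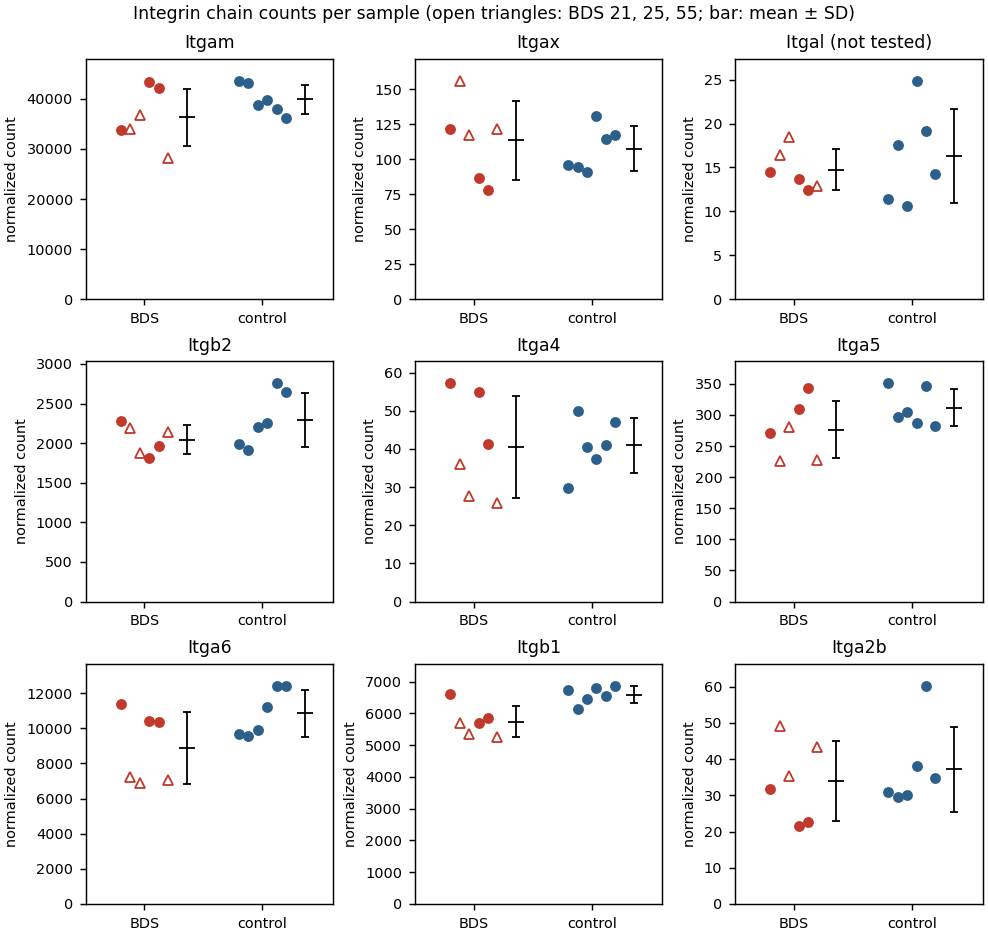
Normalized barcode counts (vertical axes, from 0) of the 9 integrin genes in 6 BDS and 6 control samples, 1 point a sample, with the mean ± SD beside each group. Open triangles are BDS 21, BDS 25 and BDS 55, which hold the 3 lowest values of Itga6 and of Itgb1 and lie among the other samples for Itgb2.

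Itgb2, the beta chain shared by the leukocyte integrins, had 1817, 2051 and 2274 normalized counts in BDS samples (lowest, median, highest) and 1915, 2230 and 2756 in control samples. The ranges overlapped in part, with BDS 35 and BDS 25 below every control and control 44 and control 54 above every BDS sample. The means were 2045 ± 184 in BDS and 2294 ± 340 in control (SD, n = 6 each), a log2 fold change of -0.17 ± 0.10 (SE; edgeR, adjusted p = 0.45). Without BDS 21, BDS 25 and BDS 55 it was -0.19.

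Itgam, which encodes CD11b, the alpha chain of CR3 and the standard surface marker of microglia, was the fourth highest gene of the panel by mean normalized count. It had 28201, 35350 and 43322 normalized counts in BDS samples (lowest, median, highest) and 36264, 39258 and 43599 in control samples. BDS 7, BDS 21 and BDS 55 lay below the lowest control, at 33806, 34006 and 28201, while BDS 35 and BDS 43, at 43322 and 42174, lay near the top of the control range. The coefficient of variation was 15.6% in BDS and 7.27% in control. The log2 fold change was -0.13 ± 0.10 (SE; edgeR, adjusted p = 0.53), and -0.01 without BDS 21, BDS 25 and BDS 55.

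Itgax, which encodes CD11c, the alpha chain of complement receptor CR4, carried on dendritic cells and on some microglia, had 77.9, 119 and 156 normalized counts in BDS samples (lowest, median, highest) and 90.9, 105 and 131 in control samples. BDS samples lay at both ends, with BDS 35 and BDS 43 below every control and BDS 21 above every control. The log2 fold change was 0.07 ± 0.17 (SE; edgeR, adjusted p = 0.84), and -0.18 without BDS 21, BDS 25 and BDS 55. Of 6 fixed dendritic cell markers, 3 were on the panel and 1, Batf3, passed the filter. The summed counts of those 3 were 185 to 321 in BDS samples and 222 to 256 in control samples, and their part in the Itgax values was not tested.

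Itgal, which encodes the alpha chain of LFA-1, an integrin abundant on lymphocytes, was above the negative-control probes in 3 of 12 samples and did not pass the filter. Its normalized counts were 12.5, 14.1 and 18.5 in BDS samples (lowest, median, highest) and 10.6, 15.9 and 24.9 in control samples, so a difference was not detectable at this depth. With no filter its log2 fold change was -0.19 ± 0.23 (SE; edgeR, adjusted p = 0.76). Of 10 T cell markers on the panel, Cd3d, Cd3e, Cd28 and Zap70 were below background in all 12 samples, whereas Cd5 exceeded it in 12, Lck in 11 and Cd4 and Cd8b1 in 6 each. The summed counts of the 10 were 121 to 222 in BDS samples and 131 to 191 in control samples.

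Itgb1, the beta chain of the fibronectin, laminin and VCAM-1 receptors, had 5242, 5698 and 6600 normalized counts in BDS samples (lowest, median, highest) and 6134, 6640 and 6871 in control samples. Of the 6 BDS samples, 5 lay below the lowest control and BDS 7, at 6600, lay within the control range. BDS 55, BDS 25 and BDS 21 held the lowest values, 5242, 5362 and 5697, with BDS 35 next at 5699. The means were 5741 ± 479 in BDS and 6591 ± 273 in control (SD, n = 6 each). The log2 fold change was -0.20 ± 0.07 (SE; edgeR, unadjusted p = 0.014, adjusted p = 0.25). It was -0.24 without BDS 7 (edgeR, adjusted p = 0.052). Without BDS 21, BDS 25 and BDS 55 it was -0.12 (edgeR, unadjusted p = 0.093, adjusted p = 0.90). With TMM scaling it was -0.11 (edgeR, unadjusted p = 0.11, adjusted p = 0.53). It was also -0.11 in a fit that held the log2 Rpl19 to Polr2a ratio constant (edgeR, unadjusted p = 0.11, adjusted p = 0.90). In the authors' deposited table Itgb1 has a fold of 0.88, BDS over control, and an unadjusted p of 0.0045.

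Itga6, the alpha chain of a laminin receptor, had 6880, 8792 and 11390 normalized counts in BDS samples (lowest, median, highest) and 9538, 10565 and 12428 in control samples. BDS 25, BDS 55 and BDS 21 lay together at 6880, 7067 and 7237, below every control, whereas BDS 43, BDS 35 and BDS 7 lay at 10347, 10445 and 11390, inside the control range. These 3 low samples are those with low housekeeping factors, named above. The log2 fold change was -0.29 ± 0.14 with all samples (SE; edgeR, adjusted p = 0.38) and -0.02 without the 3. It was 0.0095 in a fit that held the log2 Rpl19 to Polr2a ratio constant. Itga6 also occurs on endothelium, whose markers on the panel, Cdh5 and Pecam1, summed to 915 to 1287 in BDS samples and 943 to 1334 in control samples. Cdh5, the endothelial cadherin, was the less abundant marker, at 116 ± 17 normalized counts in BDS and 145 ± 23 in control (SD, n = 6 each). Its log2 fold change was -0.32 ± 0.14 (SE; edgeR, unadjusted p = 0.040, adjusted p = 0.38), and -0.16 without BDS 21, BDS 25 and BDS 55. The part of endothelium in the Itga6 values was not tested.

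Itga5, the alpha chain of the fibronectin receptor, had 226.7, 276 and 344 normalized counts in BDS samples (lowest, median, highest) and 283, 301 and 351 in control samples. BDS 21, BDS 55, BDS 7 and BDS 25 lay below the lowest control, BDS 25 only just, at 281 against 283, and BDS 43 was near the highest. The log2 fold change was -0.17 ± 0.12 (SE; edgeR, adjusted p = 0.52), and -0.01 without BDS 21, BDS 25 and BDS 55. Itga4, whose chain pairs with Itgb1 on blood leukocytes to bind VCAM-1, had 25.8, 38.7 and 57.2 normalized counts in BDS samples and 29.7, 40.9 and 49.9 in control samples. BDS 25 and BDS 55 lay below every control, and BDS 7 and BDS 35 above every control. The Itga4 probe exceeded background in 11 of 12 samples. BDS 25 was below it, with a raw count of 18 against 19.99, and BDS 55 only just above, with 22 against 20.93. The log2 fold change of Itga4 was 0.0012 ± 0.21 (SE; edgeR, adjusted p = 0.999) and 0.31 without BDS 21, BDS 25 and BDS 55.

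Itga2b, the platelet alpha chain, whose usual partner is a beta chain other than those measured here, had 21.6, 33.6 and 49.3 normalized counts in BDS samples (lowest, median, highest) and 29.6, 32.8 and 60.3 in control samples. Its probe exceeded background in all 12 samples, with raw counts of 22 to 63. The platelet markers Ppbp and Gp1bb were below background in all 12. The log2 fold change was -0.16 ± 0.24 (SE; edgeR, adjusted p = 0.73), 0.01 without control 44, the highest sample, and -0.56 without BDS 21, BDS 25 and BDS 55.

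**Figure D2:**
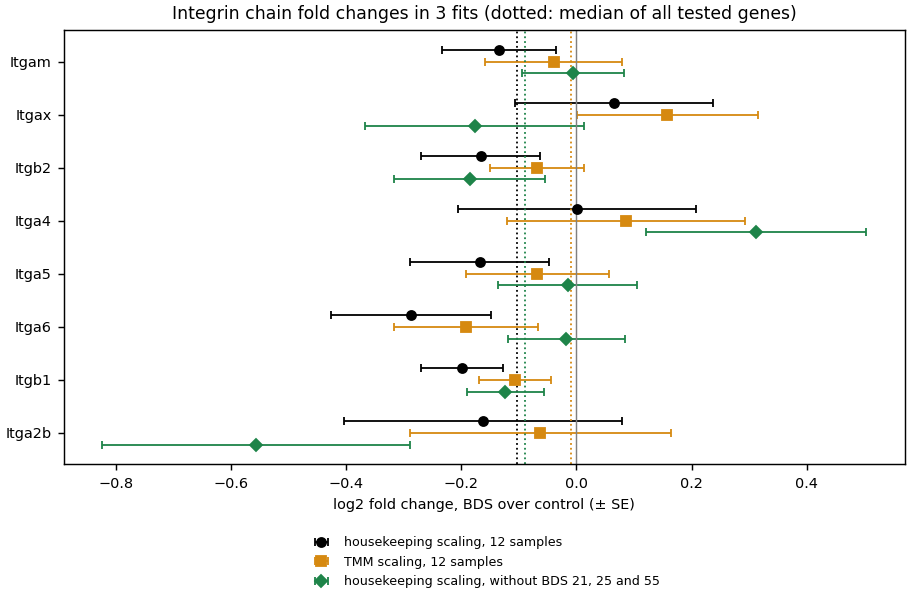
Log2 fold changes (horizontal axis, BDS over control, ± SE) of the 8 tested integrin genes in 3 edgeR fits, with a dotted line at the median of all tested genes in each fit. Itga6 lay at -0.29 with all 12 samples and at -0.02 without BDS 21, BDS 25 and BDS 55, while Itgb1 lay below its fit's median in all 3.

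Counts of an alpha and a beta chain in the same sample give a ratio that does not depend on the scaling between samples. The log2 ratio of Itgam to Itgb2 was 4.14 ± 0.34 in BDS and 4.13 ± 0.31 in control (SD, n = 6 each; exact permutation p = 0.95, two-sided). That of Itgax to Itgb2 was -4.20 ± 0.30 in BDS and -4.42 ± 0.18 in control (exact permutation p = 0.16, two-sided), with BDS 21 and BDS 25 above every control and BDS 43 below every control. The difference in the second ratio, BDS minus control, was 0.21 with all samples and -0.0083 without BDS 21, BDS 25 and BDS 55. Neither ratio differed between the groups by the permutation test.

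For the partners of Itgb1, the log2 ratio of Itga6 to Itgb1 was 0.60 ± 0.25 in BDS and 0.71 ± 0.15 in control (SD, n = 6 each; exact permutation p = 0.37, two-sided). BDS 21, BDS 25 and BDS 55, at 0.35, 0.36 and 0.43, lay below every control, and the other 3 BDS samples, at 0.79 to 0.87, lay in the upper part of the control range of 0.52 to 0.93. So Itga6 was low in those 3 samples also against its own partner chain. The log2 ratio of Itga4 to Itgb1 was -7.21 ± 0.39 in BDS and -7.35 ± 0.30 in control (exact permutation p = 0.49, two-sided), and that of Itga5 to Itgb1 -4.39 ± 0.24 in BDS and -4.41 ± 0.15 in control (exact permutation p = 0.87, two-sided). Over the 5 ratios the smallest adjusted p was 0.82, and the smallest raw p that 6 against 6 samples can give is 0.0022.

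**Figure D3:**
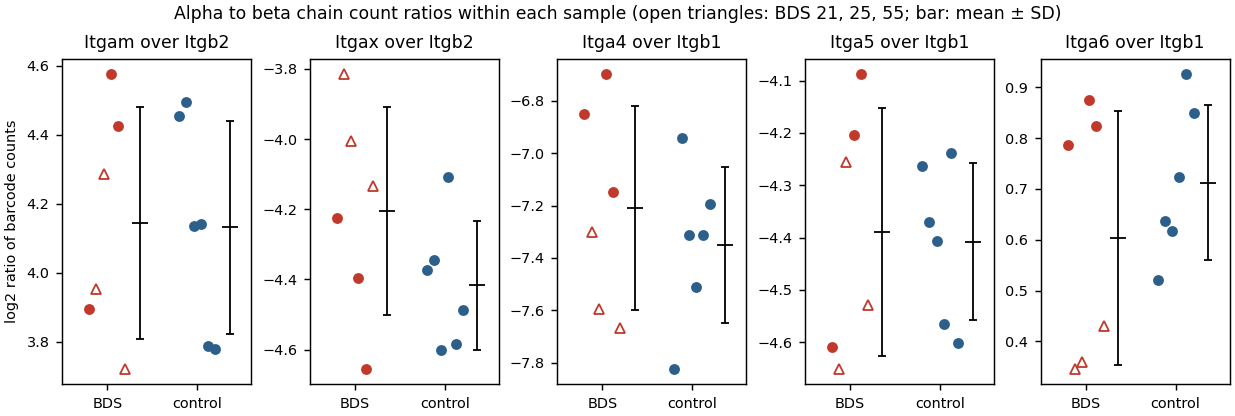
Log2 ratios of alpha to beta chain barcode counts within each of 6 BDS and 6 control samples (vertical axes, not from 0), 1 point a sample, with the mean ± SD. For Itga6 over Itgb1 the open triangles, BDS 21, BDS 25 and BDS 55, lie at 0.35 to 0.43, below the lowest control at 0.52.

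The chains did not vary as 1 group across the 12 samples. Pearson correlations of log2 normalized counts are given here as descriptions, since all genes of a sample share its library and its scaling factor. Of the 28 pairs of tested chains, 17 had r above 0 and 11 below 0, and 3 changed sign with TMM scaling. Without BDS 21, BDS 25 and BDS 55, 13 of the 28 changed sign, among them Itgam and Itga6, with r = 0.44 over 12 samples and -0.71 over 9, and Itgax and Itga6, with -0.28 over 12 and 0.69 over 9. The pairs that follow kept their sign over the 9 samples. Itgam and Itga5 had r = 0.81 over 12 samples and 0.58 over the 9 samples without BDS 21, BDS 25 and BDS 55. Itgam and Itgax, both alpha chains of Itgb2, had r = -0.67 over 12 and -0.68 over those 9. Itgam and its partner Itgb2 had r = -0.36 over 12 and -0.74 over those 9, so samples with more Itgam did not have more Itgb2. Itga6 and its partner Itgb1 had r = 0.82 over 12 and 0.43 over those 9, where the 3 low samples no longer spread the points.

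**Figure D4:**
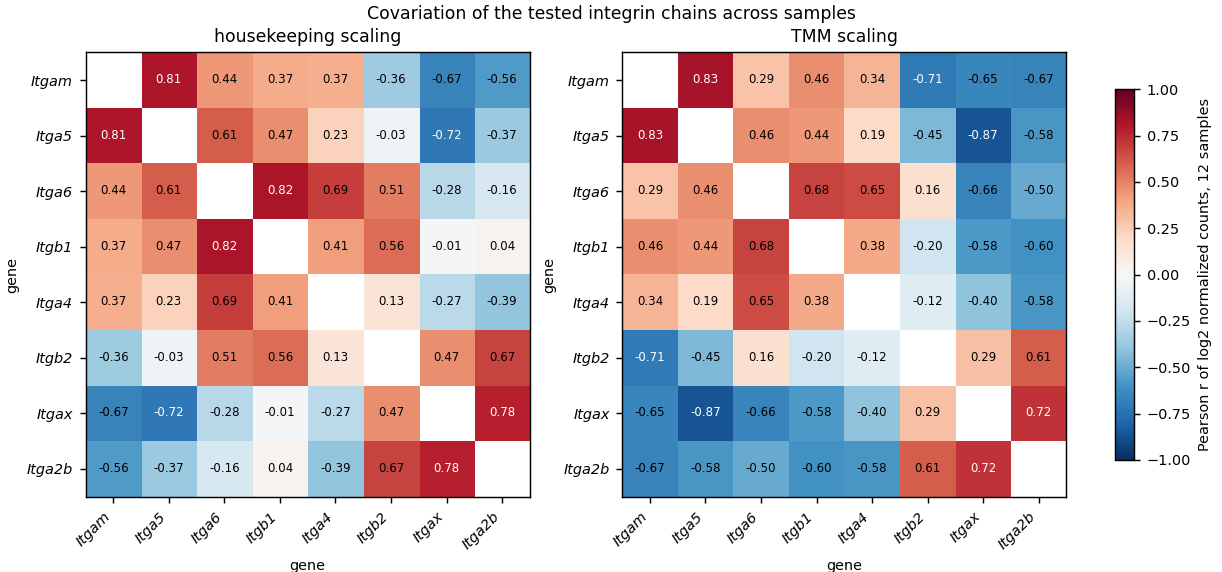
Pearson r of log2 normalized counts over 12 samples for each pair of the 8 tested integrin genes (both axes), with housekeeping scaling on the left and TMM scaling on the right. Itgam is positive with Itga5 (0.81 and 0.83) and negative with Itgax (-0.67 and -0.65) under both scalings.

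Among the tested genes outside the family, those most like Itgam by Pearson r were App, the amyloid precursor, at 0.95, Ifnar2, an interferon receptor chain, at 0.95 and Nfkb1, an NF-kB subunit, at 0.90 over 12 samples. Over the 9 samples their r was 0.92, 0.87 and 0.82. For Itgb2 they were Pdgfb, a growth factor chain, at 0.91, Lair1, an inhibitory collagen receptor, at 0.90 and Nfatc2, a calcium-regulated transcription factor, at 0.89. For Itgb1 they were Ptprc, which encodes the phosphatase CD45, at 0.93, Ccr6, a chemokine receptor, at 0.91 and Cd164, a sialomucin, at 0.91. Over the 9 samples r was 0.93, 0.89 and 0.89 for the genes of Itgb2, and 0.83, 0.85 and 0.85 for those of Itgb1. With TMM scaling over 12 samples r was 0.95, 0.97 and 0.90 for Itgam, 0.86, 0.77 and 0.72 for Itgb2, and 0.75, 0.86 and 0.91 for Itgb1. The 3 genes nearest to each chain were different for all 3 chains.

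Genes that work with integrins were read from the same fit. None passed the adjusted threshold in either direction. Of 18 listed ligands and counter-receptors, 10 were on the panel and 5 were tested. At an unadjusted p under 0.05 there were 0 of 5, beside 12.3% of all tested genes. The median log2 fold change of the 5 was 0.04 (all tested genes -0.10). That median is the value of Icam2, which exceeded background in 5 of 12 samples and averaged 18.2 in BDS and 17.6 in control. Icam1, a ligand of the Itgb2 integrins, had 1889 ± 314 normalized counts in BDS and 1782 ± 191 in control (SD, n = 6 each), a log2 fold change of 0.08, and -0.11 without BDS 21, BDS 25 and BDS 55. Icam4, Icam5 and Cd40lg, further ligands, averaged 67.0, 23.0 and 31.3 in BDS and 72.5, 19.1 and 38.8 in control. The control SDs of Icam4 and Cd40lg were 39.3 and 41.0. Icam5 and Cd40lg exceeded background in 6 and 7 of 12 samples, so their values lay near the negative controls.

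Of 10 listed membrane partners, 5 were on the panel and all 5 were tested. They are mostly tetraspanins, which hold integrins in membrane microdomains. Their median log2 fold change was -0.25 (all tested genes -0.10). That median is the value of the tested partner not named here, which is not a tetraspanin. At an unadjusted p under 0.05, 1 of the 5 was lower, beside 11.5% of all tested genes. That gene, Cd82, had 2795 ± 415 normalized counts in BDS and 3541 ± 195 in control (SD, n = 6 each), with all 6 BDS samples below every control. Its log2 fold change was -0.34 ± 0.10 (SE; edgeR, adjusted p = 0.17), -0.17 without BDS 21, BDS 25 and BDS 55, and it passed in DESeq2 with the same scaling (adjusted p = 0.045). Cd81, Cd9 and Cd53 had log2 fold changes of 0.01, 0.02 and -0.28. Without those 3 samples they were -0.12, -0.11 and 0.13.

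Of 24 listed signalling genes downstream of integrins, 10 were on the panel and all 10 were tested. At an unadjusted p under 0.05 there were 0 of 10, beside 12.3% of all tested genes. The median log2 fold change of the 10 was -0.02 (all tested genes -0.10). Syk, a kinase that acts after integrin engagement in myeloid cells, had 4674 ± 525 normalized counts in BDS and 4911 ± 420 in control (SD, n = 6 each). Tyrobp and Fcer1g, the adaptors that recruit Syk, had log2 fold changes of 0.20 and 0.04, and Ptpn6, a phosphatase, 0.06. All 4 had the other sign without BDS 21, BDS 25 and BDS 55.

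Of 9 listed regulators of integrin genes, 8 were on the panel and 7 were tested, with a median log2 fold change of -0.13 (all tested genes -0.10). Beside 11.5% of all tested genes, 2 of the 7 were lower in BDS (edgeR, unadjusted p below 0.05). These were Tgfbr2, a TGF-beta receptor chain, at -0.31 ± 0.09, and Smad3, a transcription factor of that pathway, at -0.18 ± 0.08 (SE; edgeR, adjusted p = 0.24 and 0.36). They were at -0.13 and -0.096 without BDS 21, BDS 25 and BDS 55. For Tgfbr2 every BDS sample lay below every control, which occurred for 1.12% of all tested genes. Tgfbr1 and Tgfb1 had log2 fold changes of -0.13 and 0.08. Of 11 other adhesion receptors, 10 were on the panel and 4 were tested, with a median log2 fold change of -0.13 (all tested genes -0.10). Of these 4, Cdh5, described with Itga6, was lower at an unadjusted p under 0.05, beside 11.5% of all tested genes. Cx3cr1, Pecam1 and Selplg had log2 fold changes of -0.11, -0.15 and 0.06.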

How the data were processed

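Microglial RNA (2 ng a sample, per the labels' protocols) was measured in 6 BDS and 6 control samples. The deposited table used for all tests holds whole-number barcode counts per probe, not normalized by the authors. A second deposited table holds counts that, per the series' design text, the authors scaled to positive controls and housekeeping genes; its values are whole numbers and are treated as scores. Per the file headers, its further columns are each group's mean score, the percent of samples with signal above background, the fold of BDS to control (a ratio) and a p-value without adjustment. The image-reading software was not given in the sources used here.

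Each sample's counts were divided by a factor, the geometric mean of 6 housekeeping genes (Alas1, Gapdh, Oaz1, Polr1b, Sdha, Tbp), set relative to its geometric mean over samples. A gene was tested where at least 5 of 12 samples (40%) exceeded the mean plus 2 SD of 8 negative controls, which kept 357 of 545 genes. The test was edgeR 4.0.16 (quasi-likelihood, no covariates, R 4.3.3), with Benjamini-Hochberg adjustment over all tested genes. SEs were derived from the F statistic. Ratios of chains were compared with exact permutation tests (924 arrangements, SciPy 1.17.1), adjusted over 5 ratios; a sixth, Itgal to Itgb2, was not computed because Itgal did not pass the filter.

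The members and lists were chosen with earlier results of these data known. Named were all chains found, the up to 4 tested genes of each list with the highest mean count, and the 3 genes most like Itgam, Itgb2 and Itgb1. Alternatives were DESeq2 1.42.0, limma 3.58.1 with pseudocounts of 1 and 10, other scalings, filters, background subtraction, the deposited scores, a covariate and samples left out.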

Additional observations from a re-analysis of the deposited data

Results flagged for a closer look

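Control 44 stood far above the other 5 control samples in Itga2b, at 60.3 normalized counts, a gap of 0.724 of the group's whole range. It was the only such value among 28 groups of values examined (9 chains and 5 ratios in each group). Chance alone flags about 1 in 20 groups of values, so 1 flag among 28 is within what chance gives.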

How the results depend on the processing

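No integrin chain passed the adjusted threshold under any alternative that gave an adjusted p. There were 25 of these for Itgb1, Itgb2, Itgam and Itga6, 24 for Itgax, Itga5 and Itga2b, and 23 for Itga4, since DESeq2 with the same scaling gave none for the last 4 and the strictest filter dropped Itga4. The lowest adjusted p was 0.052 (Itgb1 without BDS 7). Itgb1, Itgb2, Itgam and Itga5 kept a log2 fold change below 0 in all 25 alternatives. No paired analysis was possible because the groups share no replicate number. The causes of the changes below were not tested.

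Over all tested genes, 0 passed the adjusted threshold, and at an unadjusted p under 0.05 there were 41 with lower and 3 with higher counts. DESeq2 with the same scaling called 6, with 189 adjusted p-values not given. With 1 sample left out the calls were 0 to 4, the lower genes 22 to 88 (without BDS 55 and BDS 7) and the higher genes 2 to 10. Lower and higher genes were 14 and 18 with TMM, 14 and 13 with DESeq2's own size factors, and 20 and 0 both without BDS 21, BDS 25 and BDS 55 and with the Rpl19 to Polr2a covariate. The higher genes were 5 with the authors' 5 housekeeping genes, 12 with no filter and 1 with background subtracted.

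Itga4, at 0.0012, had log2 fold changes of -0.059 and -0.042 in limma with pseudocounts of 1 and 10, -0.047 on the deposited scores and -0.21 with background subtracted. In the same 4 settings Icam4 had 0.059, 0.030, 0.073 and 0.0013, and in the first 3 Cd40lg had 0.072, 0.0041 and 0.11. Syk turned to 0.027 with TMM and 0.021 with DESeq2's own factors. Without BDS 21, BDS 25 and BDS 55, log2 fold changes turned for Itgax to -0.18, Icam1 to -0.11, Cd81 to -0.12, Cd9 to -0.11, Cd53 to 0.13, Syk to 0.044, Ptpn6 to -0.13, Tyrobp to -0.055, Fcer1g to -0.11 and Tgfb1 to -0.15. With the covariate they turned for Itgax to -0.021, Itga6 to 0.0095, Icam1 to -0.17, Cd81 to -0.20, Cd53 to 0.19, Syk to 0.019, Ptpn6 to -0.17, Fcer1g to -0.029, Tgfbr1 to 0.067 and Tgfb1 to -0.19.

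With 1 sample left out, log2 fold changes ran from -0.042 to 0.16 for Itgax, -0.12 to 0.10 for Itga4, -0.29 to 0.014 for Itga2b, -0.31 to 0.13 for Icam4, -0.51 to 0.43 for Cd40lg, -0.037 to 0.070 for Cd81, -0.023 to 0.11 for Cd9, -0.014 to 0.10 for Ptpn6, -0.0036 to 0.093 for Fcer1g and -0.11 to 0.18 for Selplg. The log2 ratio of Itgam to Itgb2, BDS minus control, was 0.011 and ran from -0.076 to 0.095, with -0.018 between medians. That of Itga5 to Itgb1 was 0.018 and ran from -0.042 to 0.071, with -0.0066 after background subtraction and -0.0035 between medians. That of Itga4 to Itgb1 was 0.14 and became -0.12 after background subtraction. Without BDS 21, BDS 25 and BDS 55, the difference was -0.0083 for Itgax to Itgb2, against 0.21 with all samples, and 0.12 for Itga6 to Itgb1, against -0.11. Itga2b, Itga4 and Itgal lay near the negative controls, which limits what their values can show.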
